A study of Homo sapiens with 9 samples.

Results

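The p53 target genes described here are 32 genes that the tumour suppressor p53 is known to switch on, taken by gene symbol from the 62666 rows of the deposited gene table. Each symbol matched 1 row, and all 32 genes passed the filter on low counts. Polyadenylated RNA was sequenced in 9 libraries, 3 from each of 3 human breast epithelial lines that are used as a series of stages of breast cancer. MCF10A is a spontaneously immortalised line that does not form tumours, MCF10AT1 was derived from it by transformation with activated HRAS, and MCF10Ca1a is a carcinoma line of the same lineage obtained through growth as xenografts in mice. Every line was kept in DMEM/F12 medium with horse serum, bicarbonate, glutamine, insulin, epidermal growth factor, hydrocortisone and cholera toxin. Horse serum was at 5% for MCF10A and MCF10Ca1a and at 2.5% for MCF10AT1, so line and serum cannot be told apart in either comparison with MCF10AT1. Each stage was represented by a single line, and the labels do not say whether the 3 libraries of a line came from separate cultures, so p-values measure only the spread between these libraries, which may be technical.

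The protein p53 is a transcription factor that is held at a low level by the ubiquitin ligase MDM2, itself the product of a p53 target gene, and is stabilised when DNA is damaged or an oncogene is active. It binds as a tetramer to a response element made of a pair of similar decamers, and its targets arrest the cell cycle, repair DNA, adjust metabolism or trigger apoptosis. Many of the genes also have inputs other than p53, such as the stress factors ATF4 and NF-kappaB, so their levels are not a readout of p53 alone. The 32 genes were grouped by role into control of p53 (4 genes), apoptosis (11), DNA repair and nucleotide supply (4), growth arrest and proliferation (6) and metabolism, redox and stress (7).

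To show the element that p53 binds, the RefSeq promoter windows of the genes (GRCh38.p14, 250 bases before to 50 after a transcription start) were searched on both strands for the p53 full-site consensus with no spacer, at most 3 mismatches and the central C and G of each half-site intact. Of the 23 genes with a window, 7 held a match (30.4%), against 1.37% of the 27305 genes with a window in the table. A match is a description of these letters and not a measured binding site. The matches are printed 5′ to 3′ on the strand of the gene, with the 20 bases of the site in capitals.
MDM2, chr12:68808903-68808962, + strand, 2 mismatches: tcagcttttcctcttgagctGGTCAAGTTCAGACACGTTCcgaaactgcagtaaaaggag
SESN1, chr6:109008998-109009057, - strand, 3 mismatches: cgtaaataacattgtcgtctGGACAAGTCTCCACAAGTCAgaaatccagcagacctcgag
FAS, chr10:88991304-88991333, + strand, 2 mismatches: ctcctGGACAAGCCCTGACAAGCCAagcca
AEN, chr15:88621301-88621330, + strand, 2 mismatches: gagccGGGCTTGCCCGGGCATGTGGgagct
FDXR, chr17:74872991-74873020, - strand, 3 mismatches: ggcccGGGCAGGAGCGGGCTTGCCCtgcgg
DDB2, chr11:47214969-47214988, + strand, 1 mismatch: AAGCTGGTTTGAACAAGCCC
GDF15, chr19:18386186-18386205, + strand, 3 mismatches: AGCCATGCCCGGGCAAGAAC

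Library totals were 62.9 to 69.5 M estimated counts for MCF10A and MCF10AT1 and 32.9 to 35.2 M for MCF10Ca1a. The 32 genes took 0.190% to 0.192% of the counts in MCF10A, 0.202% to 0.204% in MCF10AT1 and 0.152% to 0.156% in MCF10Ca1a. HRAS was higher in MCF10AT1 than in MCF10A (log2 fold change 1.25 ± 0.05, SE). The 10 mammary epithelial markers summed to 3560 to 5623 TPM, a level corrected for transcript length, in every library. This sum covers changes both ways, with 6 of the 10 called higher and 4 lower in MCF10Ca1a than in MCF10A (39.0% and 41.9% of all genes). The basal keratin KRT14 went from 176 to 241 TPM in MCF10A to 4.70 to 4.94 TPM in MCF10Ca1a. Fibroblast, immune and endothelial lists summed to at most 31.5, 9.41 and 20.8 TPM, carried by DCN in MCF10AT1, CD14 in MCF10A and PECAM1 in MCF10Ca1a; CD3E was at 0 in every library and COL3A1, PTPRC and VWF at no more than 0.04 TPM.

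By counts, MCF10AT1 had more of the p53 target genes above MCF10A than below it, with small changes, a balance that did not hold on all TPM scales. With edgeR (quasi-likelihood, Benjamini-Hochberg over 17910 genes), 14 of the 32 were higher and 9 lower, against 29.8% and 31.8% of all genes tested. The other 9 were not called, so that 71.9% of the set was called in either direction, against 61.6% of all genes. The feedback genes MDM2 and CCNG1, the metabolic enzyme gene TIGAR and the cytokine gene GDF15 were among the 14, and the oxidoreductase gene TP53I3 and the repair genes DDB2, RRM2B and POLH among the 9. The median log2 fold change of the set was 0.07, against -0.00 over all genes, and was 0.07 with TNFRSF10C at its fitted value or at the floor of 3 counts a library. Only GDF15 rose and only TNFRSF10C and TP53I3 fell by 2-fold or more (9.36% of all genes rose and 8.64% fell that far). With limma on deposited TPM, 12 were higher and 11 lower on log2(TPM + 1), 11 and 10 with no filter, and 10 and 11 on log2(TPM + 0.1), where the balance turned. The set's median on log2(TPM + 1) was -0.07, below 0, and that of all genes was -0.11 over the 14096 that passed the filter and -0.0031 over 32434 with no filter.

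MCF10Ca1a had most of the set below both other lines. Against MCF10A, 22 of the 32 genes were lower and 7 higher by edgeR with Benjamini-Hochberg adjustment, against 41.9% and 39.0% of all genes tested, and the median log2 fold change was -0.59 against -0.05 over all genes. Against MCF10AT1, 23 were lower and 8 higher, against 40.3% and 38.0%, with a median of -0.82 against -0.04. The same shares of all genes, with the 29.8% and 31.8% of MCF10AT1 against MCF10A, are the background for each role group. In either direction 90.6% of the set was called against MCF10A and 96.9% against MCF10AT1, where 80.9% and 78.4% of all genes were. Falls of at least 2-fold were called for 13 genes against MCF10A and 12 against MCF10AT1, where 21.7% and 19.5% of all genes fell that far. Rises of at least 2-fold were called for 4 in each, against 21.2% and 18.2%. The comparisons share libraries, so their counts are not separate evidence. As these are bulk RNA measurements, fewer cells expressing a gene and less of its RNA per cell cannot be told apart.

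**Figure D1:**
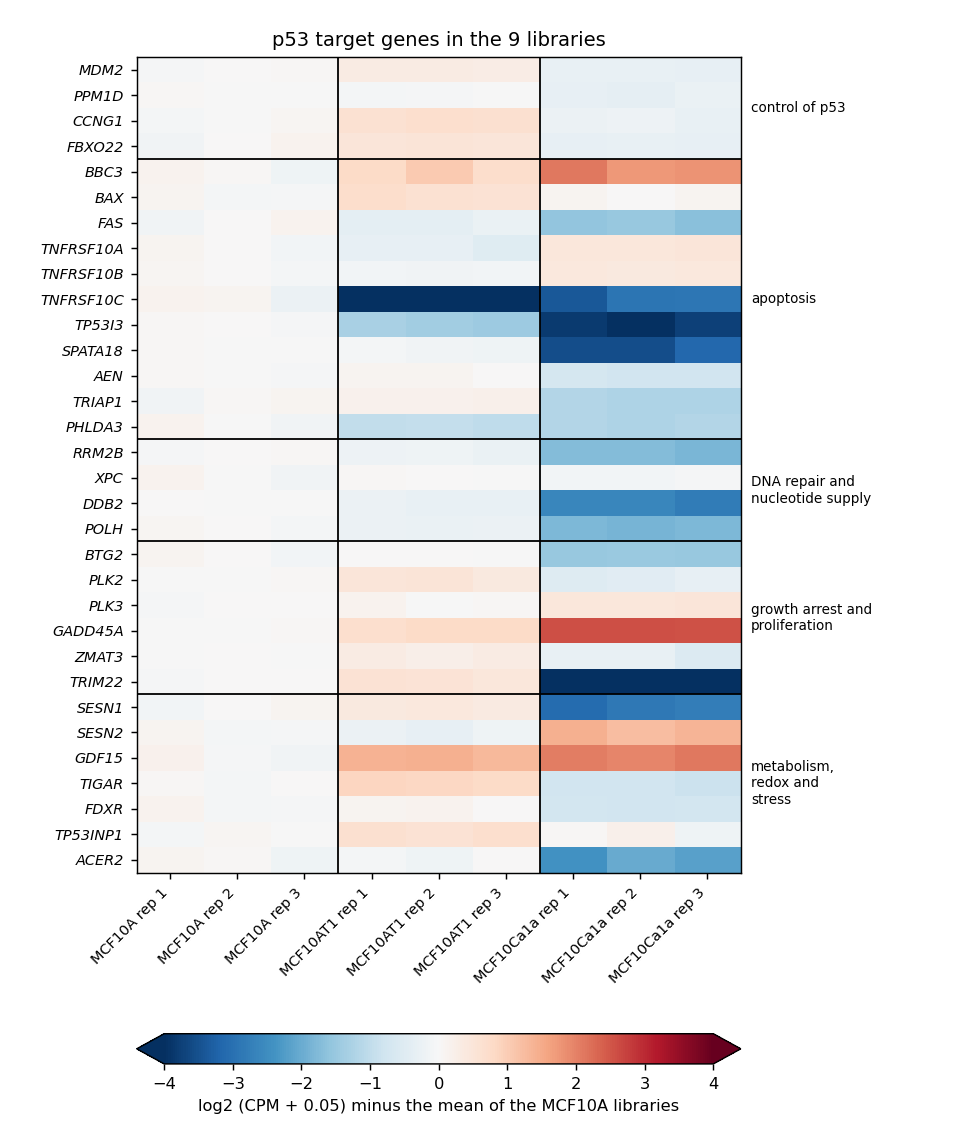
Each row is a p53 target gene, grouped by role, and each column a library; colour is log2 of normalised counts (CPM) plus 0.05, minus the mean of the 3 MCF10A libraries, limited to 4 either way. The MCF10AT1 columns are mostly pale apart from deep blue for TNFRSF10C, and the MCF10Ca1a columns hold deep blue for TP53I3, SPATA18, DDB2, TRIM22 and SESN1 and red for GADD45A, GDF15 and BBC3.

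The genes fell into a few courses across the 3 lines. BBC3, GADD45A and GDF15 were higher at each step, and FAS, TP53I3, PHLDA3, RRM2B, DDB2 and POLH were lower at each step, except that PHLDA3 changed sign between MCF10AT1 and MCF10Ca1a on TPM. MDM2, CCNG1, FBXO22, TRIAP1, PLK2, ZMAT3, TRIM22, SESN1 and TIGAR, 9 genes in all, were higher in MCF10AT1 and then lower in MCF10Ca1a than in either other line, FBXO22 with a change of sign against MCF10A on TPM. PPM1D, SPATA18, AEN, BTG2, FDXR and ACER2 were not called between MCF10A and MCF10AT1 and were lower in MCF10Ca1a. TNFRSF10A, SESN2, TNFRSF10B and PLK3 were higher in MCF10Ca1a than in either line, the first 2 after a fall in MCF10AT1. TNFRSF10C was lowest in MCF10AT1, and BAX and TP53INP1 were highest there. XPC was the 1 gene called in no comparison, and 21 genes were called in all 3. Of all genes, 61.6% were called in MCF10AT1 against MCF10A, and 80.9% and 78.4% in MCF10Ca1a against MCF10A and MCF10AT1. The share of all genes with each course was not computed.

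**Figure D2:**
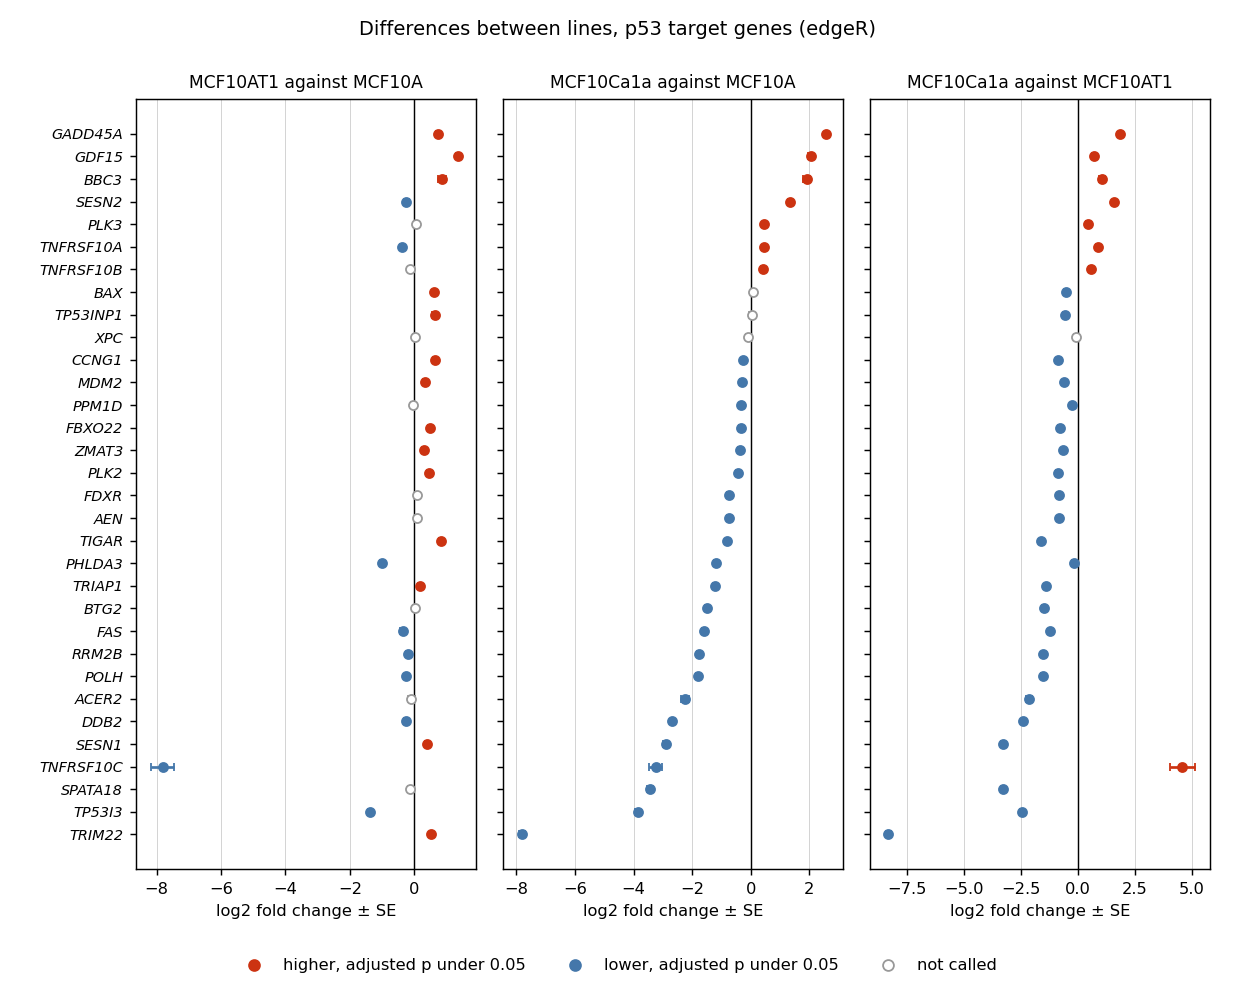
Fitted log2 fold changes of the 32 genes with SE from edgeR in the 3 comparisons, ordered by MCF10Ca1a against MCF10A; red, higher; blue, lower; open, not called. TRIM22 lies below -7.5 against both lines, and the value of TNFRSF10C against MCF10AT1 rests on 2 counts in that line. The differences of FBXO22 against MCF10A and PHLDA3 against MCF10AT1 change sign on TPM, where neither is called.

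Of the 4 genes that control p53, 3 were higher in MCF10AT1 than in MCF10A, against 29.8% of all genes. All 4 were lower in MCF10Ca1a than in either line, against 41.9% (MCF10A) and 40.3% (MCF10AT1) of all genes. Each fell by less than 2-fold, and FBXO22 changed sign against MCF10A on TPM, where it was not called. CCNG1 (chr5:163437569-163446151), which encodes cyclin G1, a partner of a phosphatase that acts on MDM2, was the most abundant gene of the set in MCF10A at 239 ± 1.16 TPM (SD, n = 3). Its normalised counts, scaled to library size (CPM), were 237, 244 and 264 in MCF10A, 382, 394 and 388 in MCF10AT1, then 210, 215 and 202 in MCF10Ca1a. The 3 lines did not overlap, with MCF10AT1 highest. Its log2 fold change was 0.64 ± 0.06 (SE) in MCF10AT1 against MCF10A (edgeR adjusted p = 2.48e-07) and -0.89 ± 0.06 in MCF10Ca1a against MCF10AT1 (adjusted p = 3.15e-09).

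MDM2 (chr12:68808176-68850686), the ligase that marks p53 for degradation, followed the same order. It had 169, 176 and 180 CPM in MCF10A, 222, 221 and 216 in MCF10AT1, then 143, 143 and 138 in MCF10Ca1a, with no overlap between lines. The log2 fold changes were 0.33 ± 0.05 for MCF10AT1 and -0.31 ± 0.05 for MCF10Ca1a against MCF10A (edgeR adjusted p = 4.75e-05 and 5.2e-05). FBXO22, a subunit of a ubiquitin ligase, had 52.7, 58.8 and 64.9 CPM in MCF10A, 81.1, 83.7 and 81.8 in MCF10AT1, then 47.0, 47.2 and 46.3 in MCF10Ca1a. By counts, MCF10Ca1a lay below MCF10A (-0.33 ± 0.07, edgeR adjusted p = 0.000414), while on length-scaled and scaled counts the difference was -0.12 in both and not called (edgeR adjusted p = 0.152 and 0.211), and on log2(TPM + 1) it was 0.05, of the opposite sign and not called. PPM1D, the phosphatase that reverses DNA-damage signalling, had 16.6 ± 0.52 CPM in MCF10A, 16.1 ± 0.30 in MCF10AT1 and 13.3 ± 0.56 in MCF10Ca1a (SD, n = 3), and its fall from MCF10AT1 was not called on TPM, where MCF10AT1 was instead called lower than MCF10A by up to -0.22.

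In the apoptosis group, 3 of 11 genes were higher and 5 lower in MCF10AT1 than in MCF10A, 3 were higher and 7 lower in MCF10Ca1a than in MCF10A, and 4 were higher and 7 lower in MCF10Ca1a than in MCF10AT1. The shares called higher were 27.3%, 27.3% and 36.4%, against 29.8%, 39.0% and 38.0% of all genes. Those called lower were 45.5%, 63.6% and 63.6%, against 31.8%, 41.9% and 40.3%. With 11 genes, the first and last shares called higher cannot be told from those of all genes. BBC3 (chr19:47220822-47232766) encodes PUMA, a BH3-only protein that frees BAX and BAK at mitochondria. Its CPM were 3.15, 2.97 and 2.55 in MCF10A, 4.95, 5.98 and 4.75 in MCF10AT1, then 12.5, 9.66 and 10.2 in MCF10Ca1a. Each line lay above the one before it without overlap, and the log2 fold change of MCF10Ca1a against MCF10A was 1.90 ± 0.13 (edgeR adjusted p = 6.16e-09). BAX, the pore-forming effector, was higher in MCF10AT1 (83.0 ± 3.11 CPM) than in MCF10A (53.7 ± 3.51) by a log2 fold change of 0.63 ± 0.06 (edgeR adjusted p = 4.08e-07). In MCF10Ca1a BAX was at 56.8 ± 1.94 CPM, not called against MCF10A by counts (log2 0.08 ± 0.06), but called higher on length-scaled counts and TPM, by up to 0.32, and without MCF10A replicate 1, by 0.12. Its fall from MCF10AT1 (-0.55 ± 0.06) was -0.19 and not called on TPM.

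The death receptor genes differed from one another. FAS (chr10:88990582-89015785), the receptor for FAS ligand, had 90.0, 101 and 109 CPM in MCF10A, 75.5, 76.1 and 82.2 in MCF10AT1, then 33.2, 35.1 and 31.5 in MCF10Ca1a. Its libraries did not overlap between lines, and the log2 fold change of MCF10Ca1a against MCF10A was -1.59 ± 0.07 (edgeR adjusted p = 9.32e-11). TNFRSF10A and TNFRSF10B, which encode the TRAIL receptors DR4 and DR5, were higher in MCF10Ca1a than in MCF10A by 0.47 ± 0.06 and 0.42 ± 0.05 (edgeR adjusted p = 6.6e-06 and 4.51e-06). TNFRSF10B was the third most abundant gene of the set in MCF10Ca1a, at 133 ± 1.28 TPM. In MCF10AT1, TNFRSF10A was lower than in MCF10A (-0.39 ± 0.06), and TNFRSF10B lay at -0.12 ± 0.05, not called by edgeR (adjusted p = 0.0562) but called lower with DESeq2, on length-scaled and scaled counts, on TPM and without MCF10A replicate 3 (-0.16, adjusted p = 0.0132).

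TNFRSF10C (chr8:23102590-23117437), which encodes a TRAIL decoy receptor without a death domain, was close to absent from MCF10AT1. It had 198, 196 and 165 counts in the MCF10A libraries, 1, 1 and 0 in MCF10AT1, then 8, 11 and 12 in MCF10Ca1a. The ratio of MCF10A to MCF10AT1 was 274, with a 95% exact interval of 75.6 to 2271 for counting error only, and the edgeR adjusted p was 3.17e-10. The ratio of MCF10Ca1a to MCF10AT1 was 28.8 (7.3 to 248.5), and TNFRSF10C in MCF10Ca1a remained below MCF10A by a log2 fold change of -3.25 ± 0.23 (edgeR adjusted p = 1.17e-08).

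In MCF10Ca1a against MCF10A, the largest falls of the group were in TP53I3 and SPATA18. TP53I3 (chr2:24077433-24085861) encodes PIG3, a quinone oxidoreductase linked to reactive oxygen species in p53-driven apoptosis. It was the second most abundant gene of the set in MCF10A, with 134, 134 and 126 CPM, and had 53.2, 50.5 and 47.5 in MCF10AT1, then 9.22, 7.94 and 9.84 in MCF10Ca1a. Every library of a line lay below every library of the line before it. The log2 fold change was -1.38 ± 0.06 in MCF10AT1 and -3.87 ± 0.08 in MCF10Ca1a against MCF10A, the latter a 14.6-fold fall (edgeR adjusted p = 4.63e-10 and 2.96e-14). SPATA18 (chr4:52051331-52097292), also called Mieap, acts in the quality control of mitochondria. It had 16.9, 16.4 and 16.4 CPM in MCF10A and 15.7, 15.0 and 14.6 in MCF10AT1, a difference that was not called (edgeR adjusted p = 0.114). In MCF10Ca1a it had 1.37, 1.37 and 1.83 CPM, 10.8-fold below MCF10A (log2 -3.44 ± 0.10, edgeR adjusted p = 7.65e-13).

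The other members of the group changed less. PHLDA3, an inhibitor of AKT at the membrane, fell from 77.8 ± 7.02 CPM in MCF10A to 39.2 ± 0.91 in MCF10AT1 (log2 -0.99 ± 0.06, edgeR adjusted p = 1.02e-08); against MCF10AT1, MCF10Ca1a at 34.0 ± 1.0 CPM was lower by counts (-0.21 ± 0.06) and not called on TPM, where the difference was 0.09. AEN, an apoptosis-enhancing nuclease, was at 61.7 ± 2.25, 65.2 ± 2.99 and 36.5 ± 0.92 CPM in MCF10A, MCF10AT1 and MCF10Ca1a. TRIAP1, a small protein that moves phosphatidic acid into mitochondria and restrains apoptosis, was at 51.0 ± 4.40, 57.5 ± 0.52 and 21.9 ± 0.48 CPM. Its fall in MCF10Ca1a against MCF10A was -1.22 ± 0.06 (edgeR adjusted p = 3.69e-10), and its rise in MCF10AT1 of 0.17 ± 0.06 was not called on TPM or without MCF10AT1 replicate 2 or 3 (edgeR adjusted p = 0.0533 and 0.0526).

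**Figure D3:**
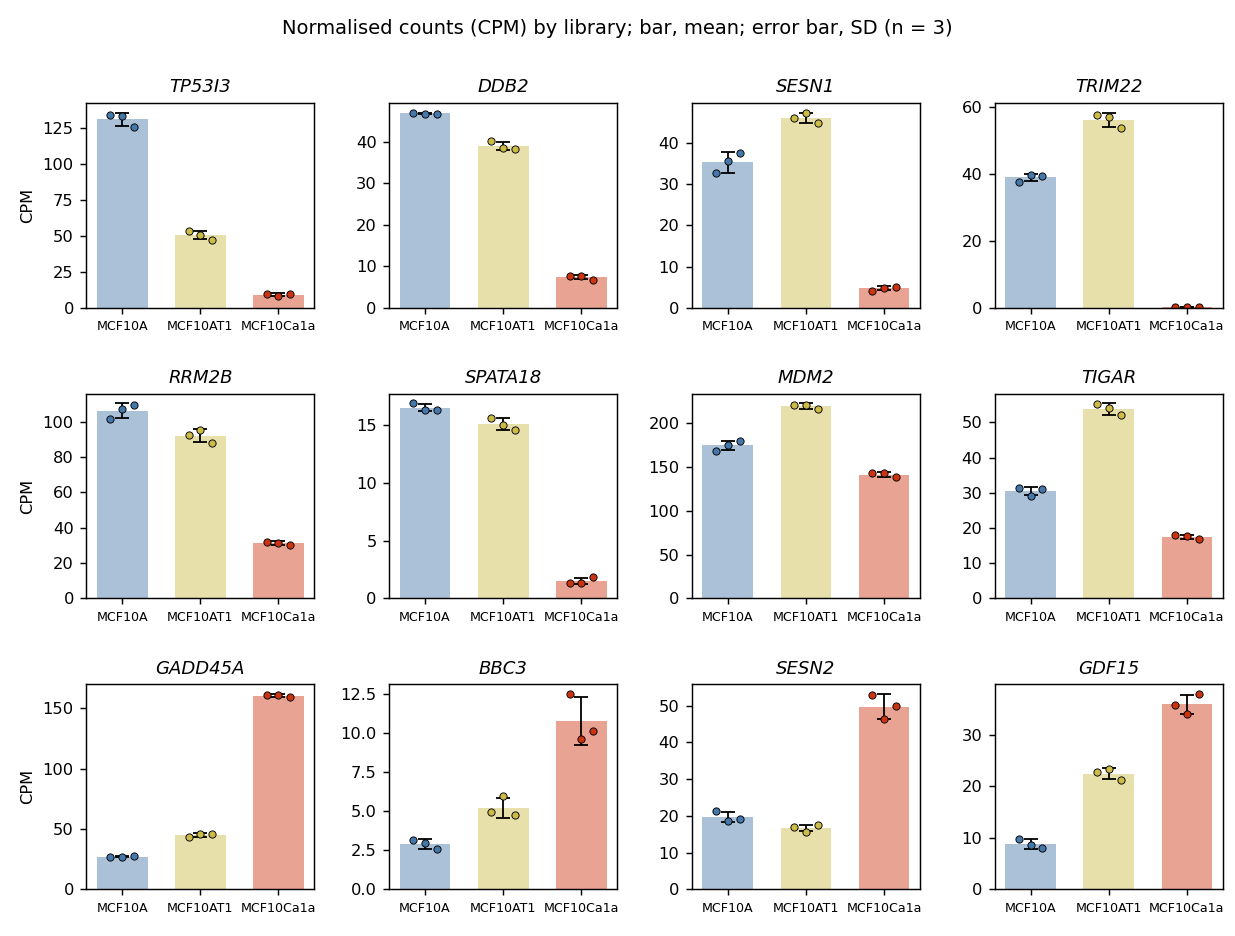
CPM of 12 p53 target genes in each library (points), with the mean of a line (bar, axis from 0) and its SD (n = 3). TP53I3, DDB2, RRM2B and SPATA18 are lowest in MCF10Ca1a, SESN1, TRIM22, MDM2 and TIGAR peak in MCF10AT1, and GADD45A, BBC3, SESN2 and GDF15 are highest in MCF10Ca1a.

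In the DNA repair and nucleotide supply group, 3 of 4 genes were lower in MCF10AT1 than in MCF10A and lower again in MCF10Ca1a, and none was higher. The shares of all genes called lower were 31.8% in MCF10AT1 against MCF10A, and 41.9% and 40.3% in MCF10Ca1a against MCF10A and MCF10AT1. DDB2 (chr11:47214465-47239240) encodes a subunit of the complex that finds ultraviolet damage in chromatin. It had 47.1, 46.8 and 46.8 CPM in MCF10A, 40.3, 38.5 and 38.4 in MCF10AT1, then 7.63, 7.58 and 6.77 in MCF10Ca1a. The 3 lines were separate at each step, and MCF10Ca1a was 6.4-fold below MCF10A (log2 -2.68 ± 0.06, edgeR adjusted p = 7.39e-14). RRM2B, the p53-inducible subunit of ribonucleotide reductase, was at 106 ± 4.05, 92.1 ± 3.59 and 31.3 ± 1.08 CPM in the 3 lines in that order, a fall of 3.4-fold from MCF10A to MCF10Ca1a (log2 -1.76 ± 0.05, edgeR adjusted p = 1.86e-12). POLH, the polymerase that copies past ultraviolet lesions, was at 54.5 ± 3.15, 45.9 ± 0.55 and 15.5 ± 0.39 CPM (log2 -1.81 ± 0.06 for MCF10Ca1a against MCF10A). Its smaller fall in MCF10AT1 (-0.25 ± 0.05) was not called on scaled counts or, with no filter, on log2(TPM + 1). XPC, which recognises damage in nucleotide excision repair, was at 41.8 ± 3.84, 42.2 ± 0.89 and 39.0 ± 0.94 CPM and was called in no comparison. It was called lower in MCF10Ca1a without MCF10A replicate 3 (-0.17 against MCF10A and -0.12 against MCF10AT1) and, against MCF10AT1, without MCF10A replicate 1 (-0.13). XPC was also called lower against MCF10A with no filter on low counts (-0.17) and on length-scaled and scaled counts (-0.27 and -0.26), and against MCF10AT1 with no filter (-0.20) and with only those 2 lines fitted (-0.10), while on log2(TPM + 1) the difference from MCF10AT1 was 0.11 and not called.

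In the growth arrest and proliferation group, 4 of 6 genes were higher and none lower in MCF10AT1 than in MCF10A, against 29.8% and 31.8% of all genes. In MCF10Ca1a, 2 were higher and 4 lower than in either line. There 39.0% and 41.9% of all genes were higher and lower against MCF10A, and 38.0% and 40.3% against MCF10AT1. GADD45A (chr1:67685061-67688338), which binds PCNA and stress kinases and slows the cycle, had the largest rise of the set in MCF10Ca1a against MCF10A. Its CPM were 26.6, 26.6 and 27.7 in MCF10A, 43.2, 46.1 and 45.6 in MCF10AT1, then 161, 162 and 159 in MCF10Ca1a. The increase was beyond the spread between libraries at each step, with log2 fold changes of 0.74 ± 0.05 and 1.84 ± 0.05 (edgeR adjusted p = 1.56e-08 and 6.44e-13). Per transcript length it went from the 11th place of the set in MCF10A, at 40.1 ± 1.37 TPM, to the first in MCF10Ca1a, at 248 ± 6.98 TPM.

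TRIM22 (chr11:5689689-5737089), an interferon- and p53-responsive tripartite motif protein that restricts viruses, went the other way. It had 37.6, 39.7 and 39.5 CPM in MCF10A and 57.7, 57.2 and 53.8 in MCF10AT1. The MCF10Ca1a libraries held 4, 7 and 7 counts, or 0.11, 0.21 and 0.20 CPM, against 2413 or more in each library of the other lines. The fitted log2 fold change was -7.81 ± 0.12 against MCF10A and -8.34 ± 0.11 against MCF10AT1 (edgeR adjusted p = 2.69e-15 and 4.62e-15). The rise in MCF10AT1 (0.53 ± 0.05) was not called on log2(TPM + 0.1).

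BTG2, an antiproliferative adaptor of the mRNA deadenylation complex, was at 28.1 ± 2.35 CPM in MCF10A, 28.4 ± 0.42 in MCF10AT1 and 9.88 ± 0.17 in MCF10Ca1a, a fall of 1.51 ± 0.07 on the log2 scale from MCF10A (edgeR adjusted p = 6.95e-11). The polo-like kinase genes PLK2 and PLK3 differed in direction in MCF10Ca1a. PLK2 was at 56.5 ± 1.24, 77.9 ± 4.0 and 41.7 ± 2.66 CPM in MCF10A, MCF10AT1 and MCF10Ca1a, and PLK3 at 22.3 ± 0.63, 23.2 ± 1.31 and 30.9 ± 0.09. Against MCF10A, MCF10Ca1a was lower by -0.44 ± 0.06 for PLK2 and higher by 0.47 ± 0.05 for PLK3 (edgeR adjusted p = 9.12e-06 and 2e-06), and the fall of PLK2 was -0.67 on length-scaled counts. ZMAT3, an RNA-binding zinc finger protein, was at 70.8 ± 1.20, 86.7 ± 2.25 and 54.5 ± 4.73 CPM, and its rise in MCF10AT1 (0.29 ± 0.06) was 0.11 and not called on TPM. Its fall in MCF10Ca1a against MCF10A was not called on log2(TPM + 1) with no filter.

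Of the 7 genes of metabolism, redox and stress, 4 were higher and 1 lower in MCF10AT1 than in MCF10A, against 29.8% and 31.8% of all genes. In MCF10Ca1a, 2 were higher and 4 lower than in MCF10A, against 39.0% and 41.9%. Against MCF10AT1, 2 were higher and 5 lower in MCF10Ca1a, where 38.0% and 40.3% of all genes were. The sestrins, antioxidant proteins that restrain mTORC1, moved in opposite directions. SESN1 (chr6:108986437-109094819) had 32.6, 35.6 and 37.7 CPM in MCF10A, 46.2, 47.3 and 44.8 in MCF10AT1, then 4.16, 4.82 and 5.13 in MCF10Ca1a. SESN2 (chr1:28259527-28282491) had 21.3, 18.6 and 19.2 CPM in MCF10A, 16.8, 15.7 and 17.4 in MCF10AT1, then 53.01, 46.3 and 50.1 in MCF10Ca1a. For both genes the 3 lines did not overlap, with MCF10AT1 highest for SESN1 and lowest for SESN2. Against MCF10A, MCF10Ca1a was at -2.91 ± 0.08 for SESN1 and 1.34 ± 0.07 for SESN2 (edgeR adjusted p = 6.58e-13 and 2.85e-10). The rise of SESN1 in MCF10AT1 (0.38 ± 0.06) was not called on log2(TPM + 0.1) or, with no filter, on log2(TPM + 1).

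GDF15 (chr19:18374731-18389176), a secreted stress cytokine of the TGF-beta family, had 9.76, 8.50 and 7.95 CPM in MCF10A, 22.7, 23.3 and 21.3 in MCF10AT1, then 35.7, 34.0 and 37.9 in MCF10Ca1a. No library overlapped between lines, and the log2 fold changes against MCF10A were 1.36 ± 0.07 and 2.04 ± 0.08 (edgeR adjusted p = 2.58e-09 and 1.11e-11). TIGAR (chr12:4307763-4354593), a fructose bisphosphatase that turns glucose towards the pentose phosphate pathway, had 31.3, 29.1 and 31.1 CPM in MCF10A, 55.2, 54.1 and 52.0 in MCF10AT1, then 17.9, 17.7 and 16.8 in MCF10Ca1a. Its log2 fold changes against MCF10A were 0.82 ± 0.05 and -0.80 ± 0.05 (edgeR adjusted p = 7.69e-09 and 7.01e-09). Both were called under every alternative, but the rise of TIGAR in MCF10AT1 was 0.46 on length-scaled and scaled counts and 0.32 on log2(TPM + 1), and its fall in MCF10Ca1a reached -1.19 on length-scaled counts.

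FDXR, the mitochondrial ferredoxin reductase, was at 20.2 ± 1.61, 21.5 ± 1.08 and 12.0 ± 0.17 CPM in MCF10A, MCF10AT1 and MCF10Ca1a, and ACER2, a Golgi ceramidase, at 4.75 ± 0.44, 4.48 ± 0.28 and 0.99 ± 0.15. Neither was called between MCF10A and MCF10AT1 with all libraries, though FDXR was higher in MCF10AT1 without MCF10A replicate 1 (0.16, edgeR adjusted p = 0.0206). Against MCF10A they were lower in MCF10Ca1a by -0.75 ± 0.07 and -2.25 ± 0.14 (edgeR adjusted p = 1.9e-07 and 2.65e-09). TP53INP1, a stress protein of p53 signalling and autophagy, was higher in MCF10AT1 (16.2 ± 0.57 CPM) than in MCF10A (10.4 ± 0.53) or MCF10Ca1a (10.7 ± 1.34). It was not called between the latter pair (log2 0.03 ± 0.09).

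**Figure D4:**
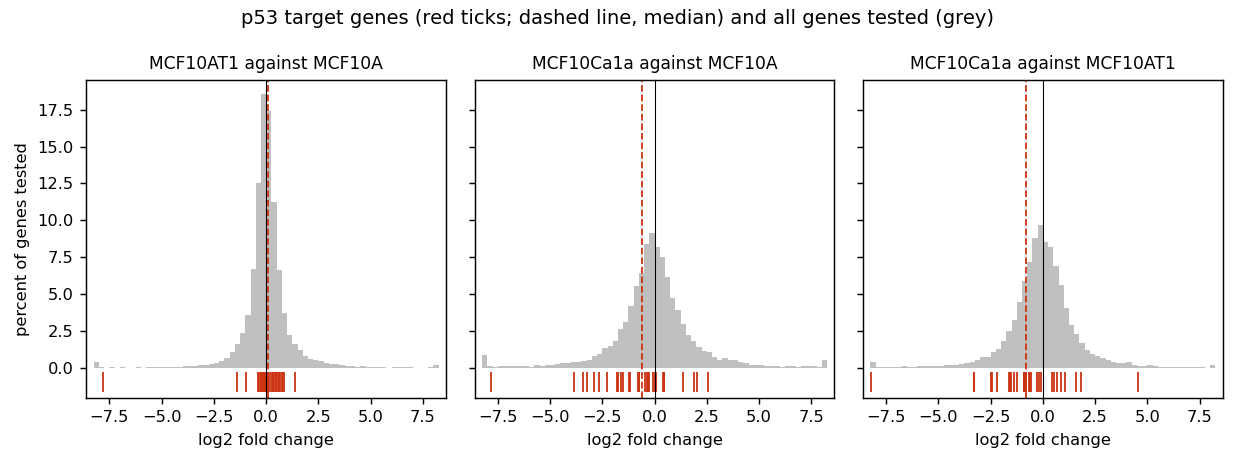
Distribution of fitted log2 fold changes over the 17910 genes tested (grey, percent per bin, with changes beyond the axis in the end bins) and the 32 p53 target genes (red ticks; dashed line, their median) in the 3 comparisons. The dashed line lies at 0.07, -0.59 and -0.82 from left to right, and the ticks of MCF10Ca1a reach from below -7.5 to above 2.5 against MCF10A.

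The order of levels per transcript length shifted with these changes. In MCF10A, CCNG1 (239 ± 1.16 TPM) was followed by TP53I3 (115 ± 9.95), TNFRSF10B (93.2 ± 9.85) and BAX (84.4 ± 10.4), of which TNFRSF10B and BAX lay within their SDs of each other. In MCF10AT1, CCNG1 (334 ± 8.12), BAX (120 ± 6.43), FBXO22 (94.5 ± 3.84) and MDM2 (89.7 ± 5.41) led, the last of these within its SD of FBXO22. In MCF10Ca1a, GADD45A, CCNG1 (212 ± 10.1), TNFRSF10B and BAX (105.2 ± 5.18) led, and TP53I3 was in the 20th place at 11.7 ± 1.42 TPM. SPATA18, ACER2, TNFRSF10C and TRIM22 were under 1 TPM in every MCF10Ca1a library. On log2(TPM + 1), which shrinks the changes of genes at low levels, the falls from MCF10A to MCF10Ca1a were -4.28 for TRIM22, -2.25 for SPATA18, -1.42 for TNFRSF10C and -1.22 for ACER2. The TPM of the 32 genes summed to 1289 to 1400 in MCF10A, 1333 to 1405 in MCF10AT1 and 1232 to 1263 in MCF10Ca1a.

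Transcript usage, the share of each transcript in a gene's RNA, was tested with limma on log2 ratios of each transcript to the gene's other transcripts in the 28 genes with at least 2 measured transcripts. Between MCF10AT1 and MCF10A usage changed in 1 of 28, TIGAR, against 6.60% of all genes tested. MCF10Ca1a differed from MCF10A in 14 of 28 and from MCF10AT1 in 14 of 28, against 47.0% and 39.1% of all genes. With the replicate number as a block, MDM2, BAX, FAS, DDB2, PLK3 and TP53INP1 were no longer called against MCF10AT1, which left 8 of 28, and AEN, PLK3 and TP53INP1 no longer against MCF10A. The last count was 9 without MCF10AT1 replicate 1, and the first was 2 without MCF10A replicate 1, MCF10AT1 replicate 2 or MCF10Ca1a replicate 3. The uncertainty with which reads were assigned to transcripts was not used here. Each adjusted p belongs to the gene, and a transcript named with it need not be the one behind the call.

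TP53I3 lost a larger part of its upstream starts than of its downstream ones. In the GENCODE 29 annotation its transcripts begin mainly around chr2:24085181-24085215 or about a kilobase downstream, at chr2:24084311-24084511, on the minus strand. The upstream group held 74.4%, 75.3% and 72.0% of the gene's TPM in MCF10A, 68.2%, 65.3% and 67.8% in MCF10AT1, then 41.6%, 42.1% and 39.4% in MCF10Ca1a. In TPM, the upstream group went from 85.4 ± 8.76 to 4.77 ± 0.44 and the downstream group from 30.02 ± 1.88 to 6.90 ± 0.99 between MCF10A and MCF10Ca1a. The transcript TP53I3-204, which begins in the downstream group, took 11.9% ± 0.99 of the gene in MCF10A and 44.8% ± 5.49 in MCF10Ca1a (limma with Simes, adjusted p = 0.000411 for the gene).

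BBC3 RNA was nearly all of 1 transcript in MCF10Ca1a. BBC3-203, which begins at chr19:47231194 on the minus strand, held 66.1%, 46.2% and 50.6% of the gene's TPM in MCF10A, 61.2%, 65.6% and 65.5% in MCF10AT1, then 94.2%, 93.5% and 90.9% in MCF10Ca1a (limma with Simes, adjusted p = 6.5e-05 for MCF10Ca1a against MCF10A). The transcripts that begin upstream of it, at chr19:47232766, were at 0.88 ± 0.31 TPM in MCF10A and 0.03 ± 0.05 in MCF10Ca1a, so the rise of the gene was carried by BBC3-203, from 1.59 ± 0.62 to 10.9 ± 1.42 TPM.

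MDM2 is known to be read from a constitutive promoter and from a second, p53-responsive one in its first intron. The matched site printed above lies between the first 2 start groups of the annotation, and the second spans chr12:68809002-68809227. RNA of the first group was at 40.7 ± 1.0, 44.3 ± 1.43 and 37.3 ± 1.16 TPM in MCF10A, MCF10AT1 and MCF10Ca1a, and RNA of the second at 14.8 ± 2.23, 20.0 ± 1.32 and 10.8 ± 0.46 TPM. The second group held 19.6% ± 2.77, 22.3% ± 0.52 and 17.1% ± 1.55 of the gene's TPM. Usage of MDM2 transcripts changed between MCF10AT1 and MCF10Ca1a (limma with Simes, adjusted p = 0.0175) and was not called in the other comparisons. MDM2-202, of the first group, rose there from 48.4% ± 1.96 to 55.0% ± 2.54. Its own unadjusted limma p was 0.0470, against a Simes p of 0.00432 for the gene over 17 transcripts, so the usage call does not rest on it. This call was lost with the replicate block (limma with Simes, adjusted p = 0.0801) and without MCF10Ca1a replicate 3 (0.0586).

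**Figure D5:**
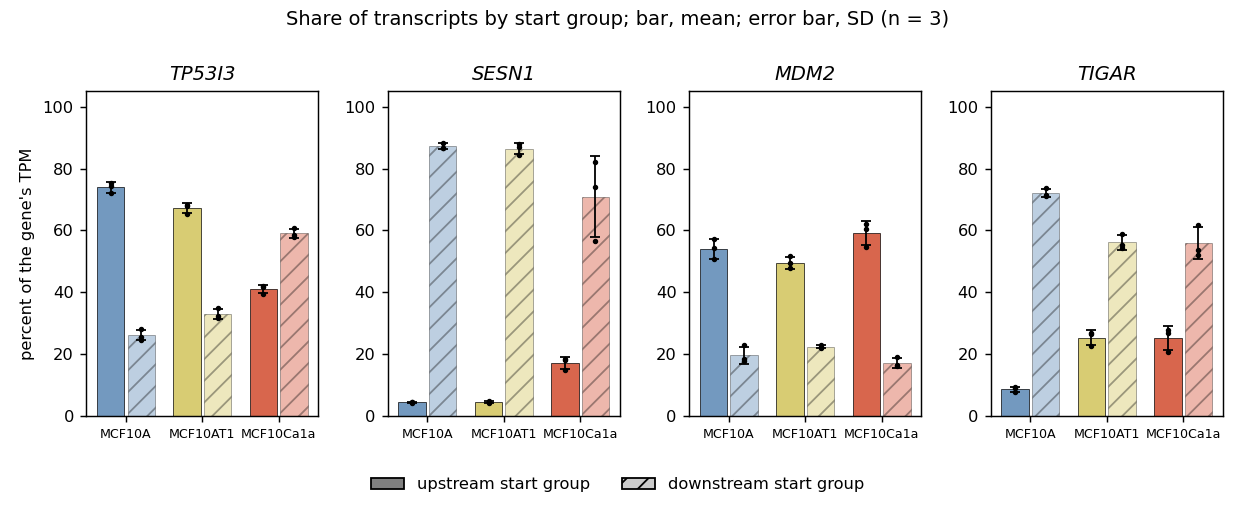
Share of a gene's TPM held by an upstream (solid) and a downstream (hatched) group of transcription starts in TP53I3, SESN1, MDM2 and TIGAR; points, libraries; bars, mean; error bars, SD (n = 3). The upstream share of TP53I3 goes from 73.9% in MCF10A to 41.0% in MCF10Ca1a, and that of TIGAR from 8.57% in MCF10A to 25.3% in MCF10AT1.

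SESN1 was read mostly from a start at chr6:109009555, which held 86.5%, 88.3% and 86.7% of its TPM in MCF10A and 73.9%, 82.3% and 56.5% in MCF10Ca1a. The matched p53 site of SESN1 lies downstream of this start and upstream of the next annotated one. A far upstream start, at chr6:109094819, held 4.33% ± 0.13 in MCF10A and 17.0% ± 2.01 in MCF10Ca1a. Since the whole gene was at 3.21 ± 0.58 TPM there, the far start went from 1.07 ± 0.02 to 0.55 ± 0.13 TPM and the main one from 21.6 ± 0.43 to 2.24 ± 0.33 TPM (limma with Simes, adjusted p = 0.000669 for the gene).

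TIGAR was the gene whose usage changed in MCF10AT1. The coding transcript TIGAR-204, which begins at chr12:4307763, upstream of the other transcripts, held 9.19%, 7.62% and 8.90% of the gene in MCF10A, 26.4%, 26.8% and 22.6% in MCF10AT1, then 27.9%, 20.7% and 26.7% in MCF10Ca1a (limma with Simes, adjusted p = 0.00485 for MCF10AT1 against MCF10A). Its level was 2.04 ± 0.27, 7.56 ± 0.80 and 2.89 ± 0.23 TPM in the 3 lines. The coding transcript TIGAR-201 stayed at 18.4% ± 0.99, 18.6% ± 0.72 and 19.1% ± 1.35, and most of the rest was assigned to a processed transcript without a coding frame.

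Usage was called in other genes too. The main GADD45A transcript, GADD45A-202, rose from 61.3% ± 4.60 of the gene in MCF10A to 77.0% ± 1.33 in MCF10Ca1a, and ZMAT3-203 from 10.1% ± 1.74 to 20.5% ± 0.06 (limma with Simes, adjusted p = 0.004 and 0.00702). TP53INP1-202 fell from 65.0% ± 7.16 to 47.9% ± 5.44, a change of usage not called with the replicate block (limma with Simes, adjusted p = 0.0763) or without MCF10A replicate 1 or 3 or MCF10Ca1a replicate 1 or 2. In FBXO22, AEN, XPC, DDB2 and PLK3 the largest change of a share between MCF10A and MCF10Ca1a was between 4.02 and 9.23 percentage points. Of these, AEN and PLK3 were not called with the block (adjusted p = 0.0738 and 0.109), AEN was called with a library left out only for MCF10A replicate 1 and MCF10Ca1a replicate 2, and PLK3 only for MCF10AT1 replicate 2 and MCF10Ca1a replicate 1 and 3. BAX was called only against MCF10AT1, where BAX-212, a nonsense-mediated decay transcript, went from 3.53% ± 1.37 to 12.2% ± 4.49. The call of BAX was lost with the replicate block (limma with Simes, adjusted p = 0.0827) and without any library but MCF10Ca1a replicate 1 or 2. FAS was called against both lines, its call against MCF10AT1 being lost with the block (adjusted p = 0.0750) and without MCF10AT1 replicate 1, with its largest changes in transcripts that are not in GENCODE 29. TRIM22 was called against both lines, but its 4 to 7 counts per MCF10Ca1a library give no measured mix of transcripts, and it was not called among transcripts with at least 30 counts.

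Of 17 regulators and partners of p53, 3 were higher and 10 lower in MCF10AT1 than in MCF10A, 7 higher and 8 lower in MCF10Ca1a than in MCF10A, and 9 higher and 5 lower in MCF10Ca1a than in MCF10AT1. In these comparisons 17.6%, 41.2% and 52.9% of the list were higher, against 29.8%, 39.0% and 38.0% of all genes, and 58.8%, 47.1% and 29.4% were lower, against 31.8%, 41.9% and 40.3%.

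MDM4, the partner of MDM2 that masks the p53 activation domain, had 21.04, 24.4 and 26.4 CPM in MCF10A, 17.2, 14.4 and 17.6 in MCF10AT1, then 44.0, 42.9 and 40.3 in MCF10Ca1a, the reverse of MDM2 in order. The log2 fold changes of MDM4 were -0.55 ± 0.09 and 0.83 ± 0.09 against MCF10A (edgeR adjusted p = 0.000102 and 7.48e-07), the first reaching -0.87 on log2(TPM + 0.1). HIPK2, a kinase that phosphorylates p53 for apoptosis, was higher in MCF10Ca1a (171 ± 7.82 CPM) than in MCF10A (78.1 ± 3.63), by 1.13 ± 0.08. PPP1R13L, the inhibitory ASPP protein, had the largest rise of the list in MCF10AT1, 0.56 ± 0.06. CHEK1, the checkpoint kinase of stalled replication forks, was at 75.2 ± 3.19, 57.6 ± 2.11 and 16.7 ± 0.95 CPM in MCF10A, MCF10AT1 and MCF10Ca1a. TP73, a p53 relative, had 65 to 88 counts in MCF10A libraries and 3 to 8 in the others. Its log2 fold change in MCF10AT1 against MCF10A was -3.84 ± 0.30, and -0.35, still called, on log2(TPM + 1) with no filter. The call of TP73 between MCF10Ca1a and MCF10AT1 rested on those few counts, with overlapping libraries. It was lost without MCF10AT1 replicate 1 or 2 or MCF10Ca1a replicate 2 or 3 (log2 0.85 to 1.10), with the DESeq2 Wald test, and with no filter on counts or TPM.

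Among 24 other p53 target genes, 11 were higher and 9 lower in MCF10AT1 than in MCF10A, 8 higher and 14 lower in MCF10Ca1a than in MCF10A, and 7 higher and 13 lower in MCF10Ca1a than in MCF10AT1. The shares called higher were 45.8%, 33.3% and 29.2%, against 29.8%, 39.0% and 38.0% of all genes, and those called lower 37.5%, 58.3% and 54.2%, against 31.8%, 41.9% and 40.3%. CDKN1A, which encodes the cyclin-dependent kinase inhibitor p21, had 167, 154 and 148 CPM in MCF10A, 365, 367 and 348 in MCF10AT1, then 141, 138 and 143 in MCF10Ca1a. MCF10AT1 stood apart, 2.31-fold above MCF10A (log2 1.21 ± 0.06, edgeR adjusted p = 5.06e-10). The lower value of CDKN1A in MCF10Ca1a than in MCF10A (-0.15 ± 0.06, edgeR adjusted p = 0.0271) was lost in 8 of the alternatives, among them without MCF10Ca1a replicate 1 or 2 (edgeR adjusted p = 0.0646 and 0.0959), with adjusted p up to 0.80 over all of them.

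ATF3, a stress transcription factor, was the list's largest rise at each step, with 2.32, 2.30 and 2.72 CPM in MCF10A, 15.6, 14.9 and 15.3 in MCF10AT1, then 73.1, 74.8 and 76.3 in MCF10Ca1a. Its log2 fold change was 4.93 ± 0.07 in MCF10Ca1a against MCF10A (edgeR adjusted p = 1.53e-15). EDA2R, a receptor of the TNF receptor family, had 749, 806 and 883 counts in MCF10A, 766, 774 and 730 in MCF10AT1, then 1, 0 and 0 in MCF10Ca1a, a ratio of MCF10A to MCF10Ca1a of 1287 with a 95% exact interval of 230.8 to 50861 for counting error. TP53I11 was at 8.68 ± 0.74, 3.80 ± 0.23 and 0.19 ± 0.09 CPM in the 3 lines.

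The 12 mitotic and S-phase genes that p53 lowers through p21 and the DREAM repressor complex were called lower or not called: 10 were lower in MCF10AT1 than in MCF10A, against 31.8% of all genes, and the other 2, CCNB2 at a log2 fold change of 0.04 and CDC20 at -0.08, were not called and are named after their values were seen. All 12 were lower in MCF10Ca1a than in either line by at least 2-fold, where 21.7% of all genes fell that far against MCF10A and 19.5% against MCF10AT1. Their median log2 fold change was -0.37 in MCF10AT1 against MCF10A and -2.58 in MCF10Ca1a against MCF10A. The cyclin gene CCNB1 was at 462 ± 27.8, 398 ± 12.5 and 38.4 ± 0.56 CPM in MCF10A, MCF10AT1 and MCF10Ca1a, and the kinetochore gene CENPF at 433 ± 38.8, 164 ± 10.8 and 31.7 ± 0.73. These genes also report how many cells are dividing, and the part of growth state or serum in the values of the p53 target genes was not tested.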

How the data were processed

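Polyadenylated RNA of 9 libraries was isolated on columns and made into stranded libraries, per the labels' protocols. The submitters' processing notes name Salmon and hg38; the Salmon version and annotation are not given in the sources used here. The deposited estimated counts per gene and per transcript were rounded for count tests, and TPM were taken as the authors deposited them. Length-scaled and scaled estimated counts, also deposited, served as alternatives.

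Genes were kept with filterByExpr of edgeR 4.0.16 (groups, the lines; minimum count 10; minimum total 15), leaving 17910 of 62666, and tested with edgeR's quasi-likelihood test after TMM normalisation, all 9 libraries in 1 fit, with Benjamini-Hochberg adjusted p under 0.05 across the genes kept (R 4.3.3). An SE is the log2 fold change divided by the root of its F statistic. CPM use TMM-scaled totals. Usage was tested with limma 3.58.1 on log2((transcript + 0.5)/(rest of gene + 0.5)) for transcripts with 10 counts in at least 3 libraries, Simes p per gene and Benjamini-Hochberg adjustment over 11598 genes; transcripts with starts within 300 bases formed a start group (GENCODE 29, 260 of 322 transcripts matched). All 32 genes had a position there. Promoter windows are RefSeq's, on GRCh38.p14. The scripts were tested on simulated data. Replicates were compared, and no pair was identical. Chi-square per degree of freedom between replicate pairs was 11.6 to 74.8 in MCF10A, 3.61 to 17.1 in MCF10AT1 and 2.51 to 4.41 in MCF10Ca1a. Counting intervals are exact binomial and leave out other error, since the reads carry no molecular identifiers.

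The members, role groups and other lists were chosen with earlier results of these data known. Values per library were given, by rule, for the largest called rise and fall of each role group in each comparison. The rule also named CDKN1A, the largest called rise and fall of each other list and, for usage, the transcript with the largest change of share. Of these, CDKN1A, MDM4, ATF3, EDA2R and some transcripts were given per library, and the others as means, ranges or changes. FAS, MDM2 and TIGAR were added after their values were seen. Some genes that the rule or the lists name are not reported here. Alternatives were DESeq2 1.42.0 (size factors, Wald test), no filter, the scaled counts, a replicate block, only 2 lines, limma on TPM and each library left out. The start groups and promoter search were added after the data were seen.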

Additional observations from a re-analysis of the deposited data

How the results depend on the processing

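Every count of p53 target genes called higher or lower stayed within 1.5 times its value under all 19 alternatives, from 10 to 15 higher and 9 to 11 lower in MCF10AT1 against MCF10A, 7 to 8 and 20 to 23 in MCF10Ca1a against MCF10A, and 8 and 20 to 24 in MCF10Ca1a against MCF10AT1. The set's median log2 change in MCF10AT1 reversed on log2(TPM + 1), with or without a filter, to -0.0734 and on log2(TPM + 0.1) to -0.0771; the median of all genes was -0.109 and -0.128 with the filter but -0.00311 without it, and in MCF10Ca1a against MCF10AT1 0.189 and 0.214 with it and 0.0146 without. On log2(TPM + 0.1) the calls in MCF10AT1 turned to 10 higher and 11 lower. For MCF10Ca1a against MCF10A the median was -0.67 with no filter, -0.73 on length-scaled and -0.72 on scaled counts and -0.52 on log2(TPM + 1). Against MCF10AT1 it was -0.78 with DESeq2 size factors, -0.78 with the Wald test, -0.91 with no filter, -0.49 on log2(TPM + 1) and -0.51 on log2(TPM + 0.1), and -0.86 to -0.82 with each library left out. The log2 changes of FBXO22, MCF10Ca1a against MCF10A, and of PHLDA3, MCF10Ca1a against MCF10AT1, reversed to 0.0451 and 0.0900 on log2(TPM + 1) with or without a filter and to 0.0457 and 0.0925 on log2(TPM + 0.1). The cause was not tested. Replicate numbers were tried as pairs, and same-numbered libraries correlated between -0.136 and 0.159 in their deviations. With 3 libraries a line, this cannot show whether they shared a batch. With the replicate block, usage changed in 8 genes instead of 14 in MCF10Ca1a against MCF10AT1, while the block changed no call of a named gene as higher or lower. With each library left out, usage changed in 9 to 13 genes in that comparison, in 11 to 15 in MCF10Ca1a against MCF10A and in 1 to 2 in MCF10AT1 against MCF10A. MCF10Ca1a libraries were less deeply sequenced than the others, which limits TNFRSF10C, TRIM22 and the transcripts of SESN1 there.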
